A study of Arabidopsis thaliana with 32 samples.

Results

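Defensin-like genes encode small secreted proteins whose cysteines pair in disulfide bridges that hold a compact fold. The family takes in classical antifungal defensins such as PDF1.2, which is induced by jasmonate and ethylene, and many relatives without an assigned function. Genes with an LCR (low-molecular-weight cysteine-rich) symbol are part of the family. The 4 genes described here, AT5G33355, AT3G59930, AT1G34047 and LCR85 (AT4G22210), were taken as those of the family with large root changes in earlier results of these data. Every locus whose gene column held a member was collected from all 11 comparison tables, which gave 24 of the 10961 entries, at 4 of the 4882 loci listed in any table. The reference annotation names 3 of them as defensin-like proteins and LCR85 as a low-molecular-weight cysteine-rich protein.

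Whole roots were taken from light-grown Arabidopsis thaliana seedlings of the wild type WS (Wassilewskija) and of the mutant Sku5, written sku5 here, named for SKU5, whose loss makes roots skew to one side on a tilted plate. The seedlings grew on plates of 0.5x MS medium in the Veggie unit, either on the International Space Station or on the ground in a chamber that copied the station with a delay of 48 h. Roots fixed in RNAlater at 4 d or 8 d after light exposure made 8 groups of 4 samples. Pools held 5 to 8 roots for a sample of 4 d and 2 to 3 for one of 8 d. Which sku5 allele was grown is not given.

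Each value below is a group's FPKM (a level corrected for transcript length and library size) from a table that the authors deposited, made with Cuffdiff. The tables hold 1 value per group, so the spread between replicates and the depth are unknown. The 8 groups recur in several comparisons, so the results for age, spaceflight and genotype share libraries. A change is called where the authors' q-value is under 0.05, every listed locus passes that threshold, and a gene that is absent from a table was either not called or not tested. The standard error (SE) given with a log2 fold change is the authors' log2 fold change over their test statistic, a rough scale only. Because the genes were chosen on these values, the calls are a description. In whole roots, fewer cells of a type and less RNA per cell cannot be told apart. SKU5 (AT4G12420) was lower in sku5 in all 3 genotype comparisons, at 10.4 against 38.9 FPKM, 23.5 against 78.6 FPKM and 14.2 against 61.9 FPKM in the authors' deposited tables. Of 10 root marker genes, 4 are listed in any table, as called genes with the values or summed values given below, and the level of the other 6 is not known.

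The coding sequences show how close the genes are to each other, which bears on how far their values can be told apart. They were read from the RefSeq annotation of the Columbia reference (TAIR10.1) by gene identifier, so they are not those of WS. Cysteine codons (TGT or TGC) are in capitals.
AT5G33355: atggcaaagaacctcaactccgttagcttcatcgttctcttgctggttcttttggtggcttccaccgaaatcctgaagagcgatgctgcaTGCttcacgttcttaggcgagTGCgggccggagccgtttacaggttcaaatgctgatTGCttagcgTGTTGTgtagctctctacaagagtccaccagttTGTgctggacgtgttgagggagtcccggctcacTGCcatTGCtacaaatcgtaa
AT3G59930: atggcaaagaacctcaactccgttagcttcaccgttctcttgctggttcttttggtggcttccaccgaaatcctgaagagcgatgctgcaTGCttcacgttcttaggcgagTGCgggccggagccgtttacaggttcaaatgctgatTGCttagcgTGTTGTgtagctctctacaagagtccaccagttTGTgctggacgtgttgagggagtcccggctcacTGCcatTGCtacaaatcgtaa
AT1G34047: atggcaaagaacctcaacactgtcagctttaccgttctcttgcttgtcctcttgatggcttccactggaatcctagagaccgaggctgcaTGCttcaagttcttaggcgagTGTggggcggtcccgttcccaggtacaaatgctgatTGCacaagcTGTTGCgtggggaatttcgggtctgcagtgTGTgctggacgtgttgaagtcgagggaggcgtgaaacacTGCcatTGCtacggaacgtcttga
LCR85: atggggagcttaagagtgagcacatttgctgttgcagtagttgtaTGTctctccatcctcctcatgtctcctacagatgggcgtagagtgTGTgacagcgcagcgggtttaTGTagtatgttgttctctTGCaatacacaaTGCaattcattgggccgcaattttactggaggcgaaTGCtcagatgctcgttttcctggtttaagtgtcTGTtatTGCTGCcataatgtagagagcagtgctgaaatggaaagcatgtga
AT5G33355 and AT3G59930 are identical at 242 of 243 coding bases, and the single difference is T32C, counted from the A of the start codon with the base of AT5G33355 first. Their longest common run is 211 bases in the coding sequence and 218 bases in the transcript. Reads from that stretch cannot be assigned to either gene by sequence alone in the reference, and the way the authors' counting shared such reads is not stated. AT1G34047 is 75.8% identical to AT5G33355 over 256 aligned coding columns, with a longest common run of 18 bases there. In the transcript its longest common run is 28 bases with AT5G33355 and 42 bases with AT3G59930. The place of its transcript in the reference also overlaps the gene AT1G34049. LCR85 is 50.2% identical to AT5G33355 over 303 columns.

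The first 3 genes each have 8 cysteine codons, at the same positions from the first to the fifth (codons 31, 38, 50, 53 and 54). LCR85 has 9 cysteine codons in another spacing, the first of them at codon 16. All 4 genes have 2 exons in the reference. The 3 alike genes lie on different chromosomes, AT5G33355 at chr5:12599250-12599944 on the plus strand, AT3G59930 at chr3:22139492-22140320 on the minus strand and AT1G34047 at chr1:12390238-12390915 on the minus strand. None of the 10 protein-coding genes closest to each of them, 5 on either side, is in the defensin family. LCR85, at chr4:11752395-11752816 on the plus strand, has 4 family genes among its 10 neighbours (AT4G22212, AT4G22214, AT4G22217 and AT4G22230). The authors' loci are on another coordinate system: only 276 of 4446 loci with a single gene name overlap that gene's place in TAIR10.1. In those coordinates, whose build is not stated, the locus of AT5G33355 spans 874 bases, that of AT1G34047 680 bases and that of AT3G59930 45373 bases. LCR85 is given a span of 16322 bases that it shares with 3 other listed loci, those of AT4G22212, AT4G22220 and AT4G22230.

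Promoters are shown because the 3 alike genes were all called lower with age on the ground, in both genotypes. The 250 bases before the annotated start of each gene in TAIR10.1 follow, 5′ to 3′ on the gene's strand, at chr5:12599000-12599249, chr3:22140321-22140570 and chr1:12390916-12391165. Capitals mark matches, on either strand, to 6 motifs searched, CACGTG (the G-box), GCCGCC (the GCC-box), TTGACC and TTGACT (W-box cores), TGACG (the TGA element) and TATAAA (the TATA box).
AT5G33355: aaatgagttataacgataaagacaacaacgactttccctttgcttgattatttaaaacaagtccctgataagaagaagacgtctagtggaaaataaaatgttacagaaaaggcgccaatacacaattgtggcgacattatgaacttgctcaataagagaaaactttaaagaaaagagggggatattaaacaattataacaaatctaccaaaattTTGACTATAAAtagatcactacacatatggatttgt
AT3G59930: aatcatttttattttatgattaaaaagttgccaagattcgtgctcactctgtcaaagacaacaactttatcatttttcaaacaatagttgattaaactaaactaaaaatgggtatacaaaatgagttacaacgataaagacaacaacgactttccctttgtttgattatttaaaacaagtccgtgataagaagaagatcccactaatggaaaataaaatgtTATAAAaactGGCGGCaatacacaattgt
AT1G34047: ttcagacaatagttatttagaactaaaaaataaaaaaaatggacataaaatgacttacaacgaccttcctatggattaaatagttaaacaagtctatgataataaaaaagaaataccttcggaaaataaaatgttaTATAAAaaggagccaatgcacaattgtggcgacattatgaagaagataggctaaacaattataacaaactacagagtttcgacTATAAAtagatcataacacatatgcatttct
In AT5G33355 the capitals TTGACTATAAA join a W-box core and a TATA box that share their last and first bases. The annotated start of AT3G59930 lies 193 genomic bases before its start codon, against 69 for AT5G33355 and 76 for AT1G34047, so its window begins farther upstream. Over the 300 bases before the start codon, AT5G33355 and AT3G59930 are 90.2% identical, and AT5G33355 and AT1G34047 63.8%. In windows of 250 bases before to 50 bases after the start, TATAAA is found in all 4 genes and in 52.1% of 27561 protein-coding promoters. TTGACT is found in AT5G33355 and AT1G34047 and in 21.8% of all, and GCCGCC in AT3G59930 and in 2.58% of all. The TTGACT match of AT1G34047 reaches into the 50 bases after the start, so it is not marked in the 250 bases above. The G-box is in none of the 4 windows and in 7.65% of all promoters. The same holds for the core TTGACC, in 14.1% of all, and for the TGA element, in 23.0%.

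Of 16 possible calls for age 11 were made, and every one was a fall from 4 d to 8 d. The age changes ran from 4.47-fold to 30.6-fold on the ground, and were as small as 1.98-fold in WS in spaceflight. On the ground in WS, AT5G33355 fell from 835 FPKM to 58.5 FPKM in the authors' deposited table, 14.3-fold (log2 fold change -3.84, SE 0.423, q = 0.00217). AT1G34047 fell from 149 FPKM to 8.47 FPKM there, 17.6-fold (log2 fold change -4.14, SE 0.613) in the authors' deposited table. For AT3G59930 the fall was 4.47-fold, from 799 FPKM to 179 FPKM in the authors' deposited table. So the 2 genes that are nearly identical in coding sequence stood at close levels at 4 d and at unequal levels at 8 d. These 3 calls of 4 genes stand beside 22.6% of all loci called in this comparison and 12.1% called and lower, where the base is the 4882 loci listed in any table, since the loci tested are not known.

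In sku5 on the ground all 4 genes were called and lower at 8 d, beside 20.9% of all loci called and 10.3% called and lower. AT1G34047 stood at 7.44 FPKM at 8 d against 227 FPKM at 4 d in the authors' deposited table, 30.6-fold lower (log2 fold change -4.93, SE 0.672, q = 0.00209). This was the largest finite fall among the 504 in that table, and the fall of AT5G33355 was the second. AT5G33355 stood there at 82.0 FPKM against 1399 FPKM in the authors' deposited table, 17.1-fold lower (log2 fold change -4.09, SE 0.457). AT3G59930 stood at 186 FPKM against 1772 FPKM in the authors' deposited table, 9.54-fold lower. The only entry of LCR85 in any table is in this comparison, at 13.5 FPKM against 194 FPKM in the authors' deposited table, 14.4-fold lower (q = 0.0145). Its log2 fold change of -3.84 goes with a test statistic of -1.36, hence an SE of 2.83, and with a p-value of 0.00055 in the authors' deposited table.

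In spaceflight the falls with age were called for 2 genes in each genotype. AT5G33355 in WS fell 1.98-fold, to 130 FPKM from 257 FPKM in the authors' deposited table (log2 fold change -0.99, SE 0.452, q = 0.00218). AT1G34047 in WS fell 2.36-fold, to 38.3 FPKM from 90.2 FPKM in the authors' deposited table. The 2 calls of 4 genes stand beside 22.0% of all loci called there and 12.4% called and lower. In sku5 AT5G33355 fell 9.26-fold, to 26.8 FPKM from 249 FPKM in the authors' deposited table (log2 fold change -3.21, SE 0.567, q = 0.00125). AT3G59930 in sku5 fell 4.79-fold, to 63.0 FPKM from 302 FPKM in the authors' deposited table, and 36.4% of all loci were called in that comparison, with 22.1% called and lower. In log2 terms the age change of AT5G33355 in WS was 2.85 less negative in spaceflight than on the ground (SE 0.619), and that of AT1G34047 was 2.90 less negative (SE 0.769). In sku5 the age change of AT5G33355 differed by 0.88 between the environments (SE 0.728). These differences come from separate libraries and are given without a test, because the genes were chosen on them.

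**Figure D1:**
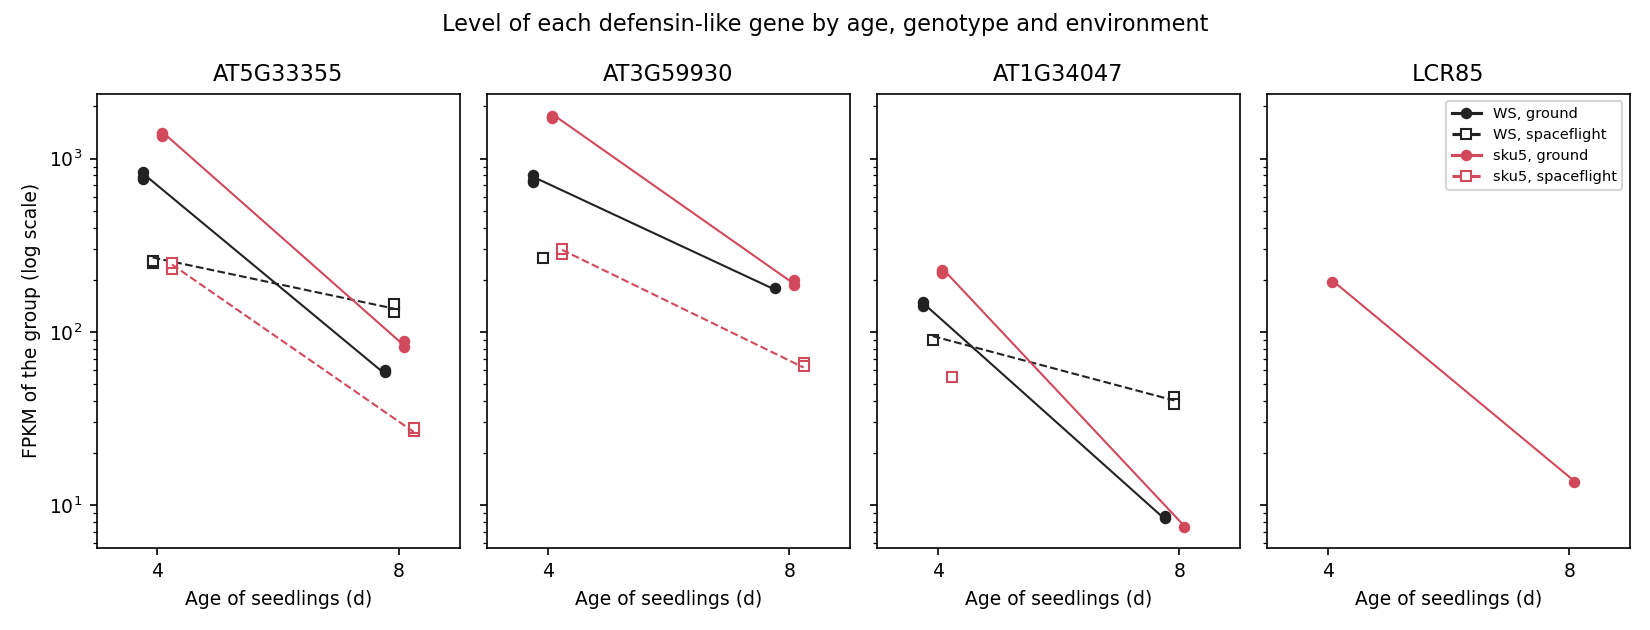
FPKM of each group at 4 d and 8 d on a log axis, with a point for each table that lists the gene, and lines through levels brought to a common scale (black WS, red sku5, solid and filled ground, dashed and open spaceflight). AT5G33355 falls from 835 to 58.5 FPKM in WS on the ground and from 257 to 130 FPKM in WS in spaceflight. A missing point means that no table lists the gene for that group.

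Markers of root cells and of other tissues also changed with age. Of the 4 listed root markers, WOX5, of the root stem cell niche, and SCR, of the endodermis, were lower at 8 d in WS on the ground, at a summed 22.0 FPKM against 40.5 FPKM in the authors' deposited table. WOX5 was lower at 8 d in sku5 as well, at 12.5 FPKM against 29.5 FPKM on the ground and 9.38 FPKM against 28.2 FPKM in spaceflight in the authors' deposited tables. In WS in spaceflight WER was higher at 8 d and SCR lower, at a summed 86.5 FPKM at 8 d against 54.5 FPKM at 4 d in the authors' deposited table. That sum joins opposite directions and does not show the fall of SCR. Of 6 green shoot genes listed in any table, 4 to 5 were called in each age comparison and all were lower at 8 d. Their summed level over called genes was 79.7 to 106 FPKM at 8 d and 246 to 528 FPKM at 4 d. Of 8 listed seed genes, 0 to 7 were called, all lower at 8 d, with sums of at most 262 FPKM at 8 d and up to 6867 FPKM at 4 d. In WS the called seed genes are listed at 0 at 8 d. In sku5 on the ground no seed gene is listed, so each was either not called or not tested. The part of these cells and tissues in the age changes was not tested.

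Spaceflight against ground gave 9 calls of 16 possible, 7 lower and 2 higher, and the direction depended on age and genotype. At 4 d the calls were lower in spaceflight in both genotypes. In WS, AT5G33355 stood at 250.5 FPKM in spaceflight and 767 FPKM on the ground in the authors' deposited table, 3.06-fold lower (log2 fold change -1.62, SE 0.441, q = 0.0113). AT3G59930 stood at 265 FPKM against 734 FPKM in the authors' deposited table, 2.77-fold lower (q = 0.0197). They hold places 5 and 9 by size among the 65 falls of that comparison, in which 2.62% of all loci were called and 1.33% were called and lower. AT1G34047 was not listed there, and its levels, taken from other tables to a common scale, were 94.4 FPKM in spaceflight and 147 FPKM on the ground.

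In sku5 at 4 d all 3 alike genes were lower in spaceflight. AT3G59930 stood at 280.1 FPKM against 1705 FPKM on the ground in the authors' deposited table, 6.09-fold lower (log2 fold change -2.61, SE 0.585, q = 0.00207). AT5G33355 stood at 231 FPKM against 1346 FPKM in the authors' deposited table, 5.84-fold lower (log2 fold change -2.54, SE 0.459). AT1G34047 stood at 55.1 FPKM against 219 FPKM in the authors' deposited table, 3.97-fold lower. By size these were places 6, 8 and 21 among 407 falls, and 20.6% of all loci were called, with 8.34% called and lower. The median log2 fold change of the 3 genes was -2.54 and that of all called loci with a finite value 0.83. The same medians, of the called members and of all called loci, were -1.54 and -0.62 in WS at 4 d. They were 1.76 and -0.33 in WS at 8 d, and -1.63 and -0.50 in sku5 at 8 d. No support is drawn from these contrasts, since the genes were chosen on these values. On the log2 scale the change in sku5 less that in WS was -0.93 for AT5G33355 (SE 0.636) and -1.14 for AT3G59930 (SE 0.877). These differences were not tested, and with SEs of this size the genotypes are not told apart here.

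At 8 d the genotypes moved in opposite directions. In WS, AT5G33355 was higher in spaceflight, at 142 FPKM against 59.9 FPKM in the authors' deposited table, 2.37-fold (log2 fold change 1.25, SE 0.389, q = 0.00259). AT1G34047 was also higher, at 42.0 FPKM against 8.67 FPKM in the authors' deposited table, 4.84-fold (log2 fold change 2.28, SE 0.563), which is place 10 among 410 rises. In this comparison 18.2% of all loci were called and 8.4% were called and higher. In sku5, AT5G33355 was lower in spaceflight, at 28.0 FPKM against 88.3 FPKM in the authors' deposited table, 3.16-fold (log2 fold change -1.66, SE 0.533, q = 0.00136). AT3G59930 was lower as well, at 65.8 FPKM against 200.1 FPKM in the authors' deposited table, 3.04-fold, and 33.8% of all loci were called, with 22.7% called and lower. The spaceflight change of AT5G33355 was lower in sku5 than in WS on the log2 scale (difference -2.91, SE 0.659). AT3G59930 is not listed for WS and AT1G34047 is not listed for sku5, so neither gene can be set across the genotypes at this age.

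**Figure D2:**
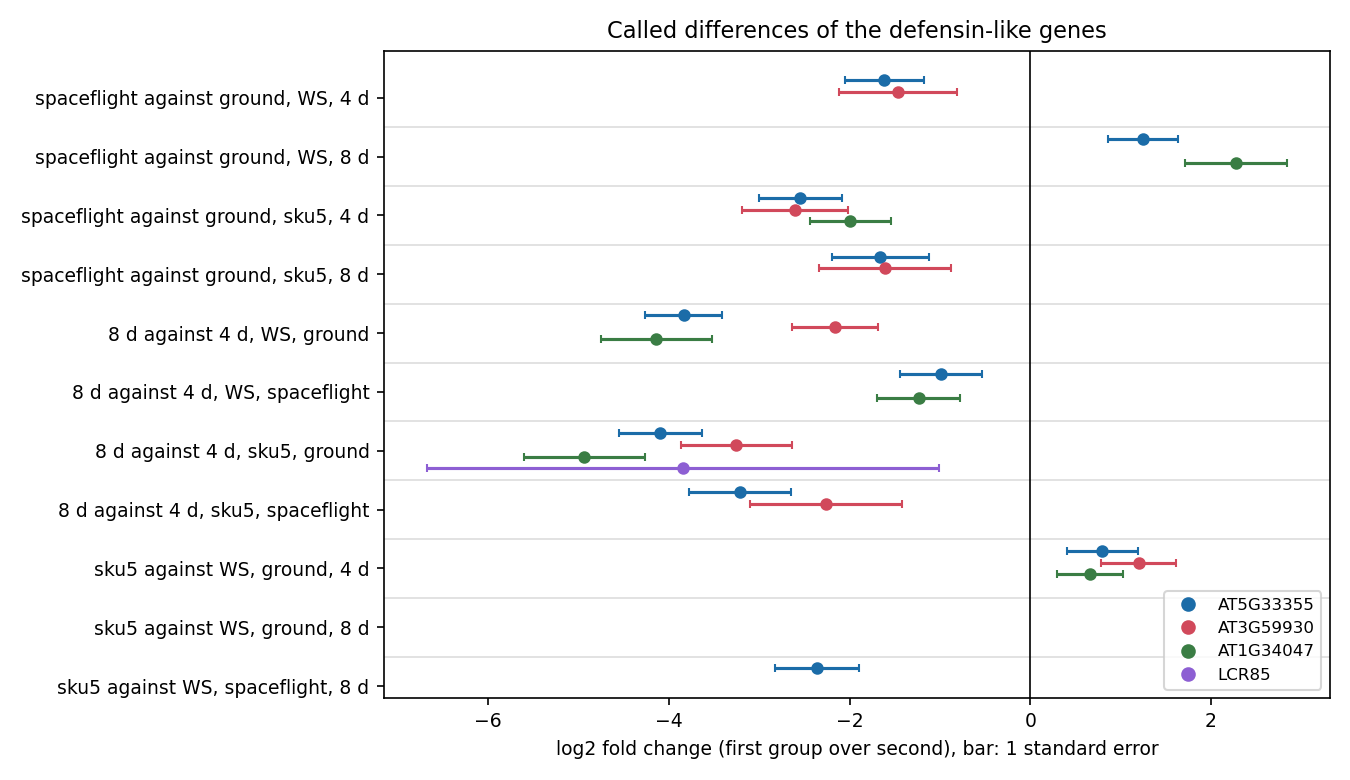
Log2 fold changes of the 24 called entries, the first-named group over the second, with a bar of 1 SE on each side and a colour for each gene. The points for age lie below 0 in all 4 settings, and those for spaceflight at 8 d lie above 0 in WS (1.25 and 2.28) and below 0 in sku5 (-1.66 and -1.60).

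Beside the spaceflight changes at 4 d in WS, 5 of 6 listed green shoot genes were called and higher, with a summed level of 514 FPKM in spaceflight against 239 FPKM on the ground, and so were 2 of 8 seed genes, at 514 against 215 FPKM. In sku5 at 4 d, 3 of 8 seed genes were called, all higher, at 1635 against 2.88 FPKM, and no green shoot gene was called. At 8 d no marker of either kind, nor of root cells, is listed for WS, which may mean not called or not tested. In sku5 at 8 d, 5 of 8 seed genes were higher, at 255 against 3.93 FPKM, and the only green shoot gene called, PSAD1, was lower. CASP1, of the Casparian strip of the root endodermis, was lower there too, at 155 FPKM against 265 FPKM in the authors' deposited table. These sums cover called genes alone, and their part in the defensin-like changes was not tested.

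Genotype comparisons gave 4 calls of 12 possible, of both directions. On the ground at 4 d the 3 alike genes were higher in sku5, beside 7.8% of all loci called and 3.75% called and higher. AT3G59930 stood at 1729 FPKM in sku5 and 752 FPKM in WS in the authors' deposited table, 2.3-fold (log2 fold change 1.2, SE 0.416, q = 0.00558). AT5G33355 stood at 1365 FPKM against 786 FPKM in the authors' deposited table, 1.74-fold (log2 fold change 0.80, SE 0.393). AT1G34047 stood at 222 FPKM against 140.4 FPKM in the authors' deposited table, 1.58-fold (q = 0.0163). In this comparison 3 of 8 listed seed genes were lower in sku5, at 2.91 against 258 FPKM, and their part in it was not tested.

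On the ground at 8 d none of the 4 genes was called, where 10.8% of all loci were. Levels on a common scale were 83.5 FPKM in sku5 and 57.3 FPKM in WS for AT5G33355, 189 and 175 FPKM for AT3G59930, and 7.59 and 8.30 FPKM for AT1G34047. Among the markers on the ground at 8 d, CASP1 was called and higher in sku5, with 262 FPKM where WS had 161 FPKM. Of the 6 listed green shoot genes 1 was called, AT1G67090, which was lower in sku5 (69.4 FPKM) than in WS (96.5 FPKM). No seed gene is listed for that comparison. How these markers bear on the defensin-like levels was not tested. In spaceflight at 8 d only AT5G33355 was listed. It was lower in sku5, at 28.0 FPKM against 144 FPKM in the authors' deposited table, 5.15-fold (log2 fold change -2.36, SE 0.467, q = 0.00182), place 7 among 828 finite falls, and 28.9% of all loci were called, with 17.0% called and lower. Both of its groups also enter the spaceflight comparisons at 8 d, so it is not a separate result. There 2 of 8 seed genes were higher in sku5, at 29.8 FPKM where WS is listed at 0, and 1 of 6 green shoot genes was lower. The root epidermis gene WER was also lower in sku5, at 64.7 FPKM against 88.9 FPKM in the authors' deposited table, and the part of these markers was not tested. No table sets the genotypes against each other in spaceflight at 4 d. The levels there on a common scale were 245 FPKM in sku5 and 269 FPKM in WS for AT5G33355, 297 and 284 FPKM for AT3G59930, and 58.3 and 94.4 FPKM for AT1G34047.

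**Figure D3:**
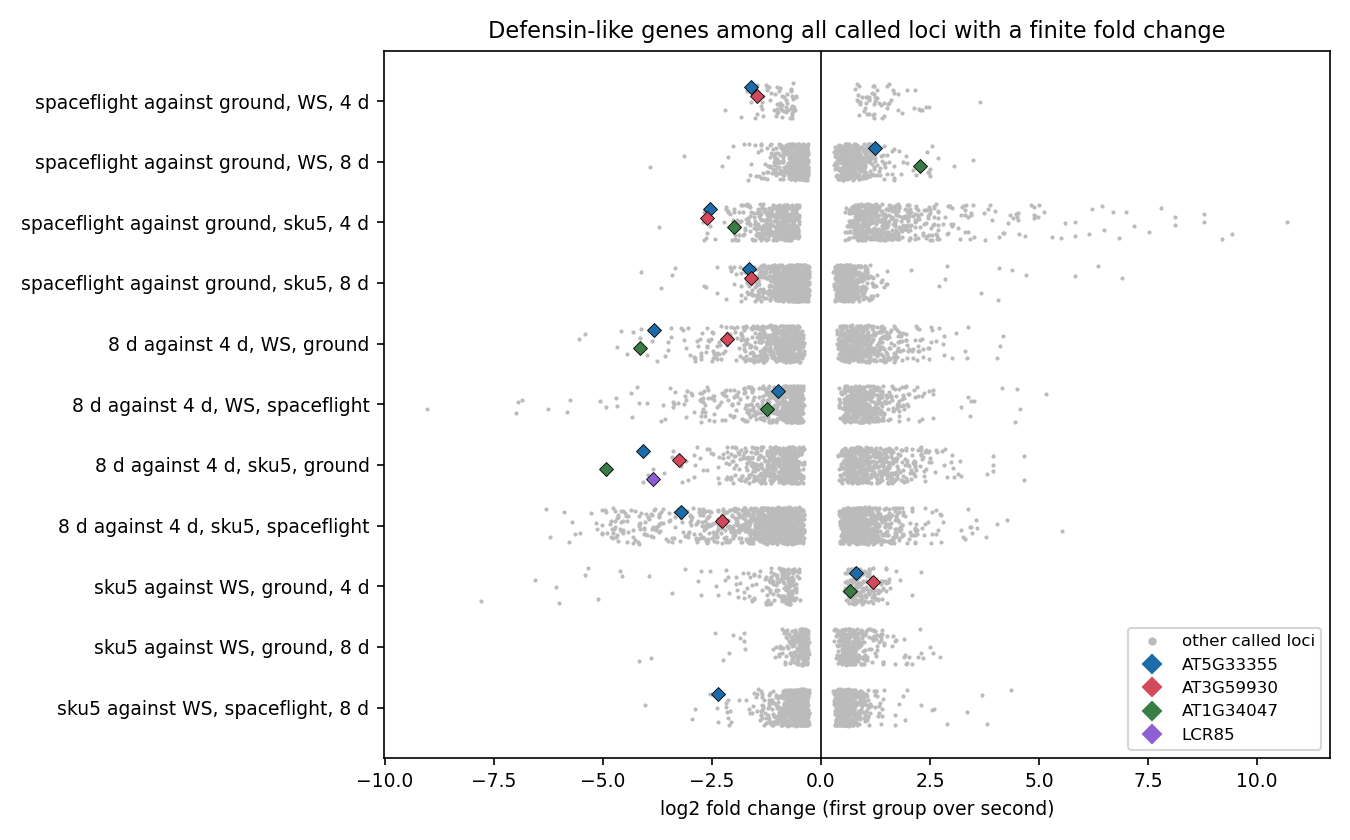
Log2 fold changes of all called loci with a finite value (grey) and of the defensin-like genes (coloured diamonds) in each comparison. In sku5 on the ground AT1G34047 (-4.93) and AT5G33355 (-4.09) lie at the far left of the age changes, and in WS in spaceflight the same genes (-1.24 and -0.99) lie within the grey cloud.

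Set in order on the common scale, AT5G33355 ran from 26.4 FPKM in sku5 in spaceflight at 8 d to 1426 FPKM in sku5 on the ground at 4 d, a 53.9-fold range over 8 groups. Between these ends came WS on the ground at 8 d (57.3 FPKM), sku5 on the ground at 8 d (83.5 FPKM), WS in spaceflight at 8 d (136 FPKM), sku5 and WS in spaceflight at 4 d (245 and 269 FPKM) and WS on the ground at 4 d (820.5 FPKM). Neighbours in this order were compared by the authors in 3 cases. The genotypes on the ground at 8 d were not called, while those on the ground at 4 d were, and so were spaceflight and ground in WS at 4 d. The other neighbours cannot be separated here, since no table sets them against each other. AT3G59930 had the same top and bottom group, at 1805 and 62.2 FPKM, over 7 groups. AT1G34047 had the same top group, at 232 FPKM, and its lowest value, 7.59 FPKM, in sku5 on the ground at 8 d, also over 7 groups. The group it lacks is sku5 in spaceflight at 8 d, the lowest of AT5G33355 and AT3G59930. Whether its bottom group differs from theirs is therefore not known.

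Within a table the levels of AT3G59930 and AT5G33355 can be set over each other. The ratio was 0.957 in WS and 1.27 in sku5 on the ground at 4 d, 1.06 in WS and 1.21 in sku5 in spaceflight at 4 d, and 3.06 in WS and 2.27 in sku5 on the ground at 8 d. In sku5 in spaceflight at 8 d it was 2.35. All 3 groups of 8 d lay above the 4 groups of 4 d. Whether reads from the shared sequence were counted for either gene is not stated, and their part in the ratio was not tested.

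Profiles over the groups were compared with those of all loci that have a value in the same groups, by Pearson's r of log2(FPKM + 1), as a description over points that share libraries between tables. A locus has a value for a group only where it was called in a comparison with that group. The loci compared were thus called repeatedly. The locus most like AT3G59930 was AT5G33355 (r = 0.972 over 7 groups, among 218 loci), followed by AT5G44585, which is uncharacterized (0.943), and the aquaporin gene PIP1B (AT2G45960, 0.940). AT3G59930 and AT5G33355 share a run of 218 bases in the transcript, and the part of shared reads in this likeness was not tested. AT5G33355 was also first for AT1G34047 (r = 0.945 over 7 groups, among 211 loci), followed by a locus without a gene name (0.935) and CPL3 (AT4G01060), a MYB gene related to CAPRICE, which acts in root hair patterning (0.934). Over all 8 groups and 207 loci, AT5G33355 was most like PSBQ-2 (AT4G05180), a photosystem II subunit gene (0.935), GRP-3 (AT2G05520), which encodes a glycine-rich protein (0.928), and PIP1B (0.925). AT3G59930 has no value in WS in spaceflight at 8 d, and AT1G34047 none in sku5 in spaceflight at 8 d. Both were therefore left out of the 207 loci, and they were not compared with each other. LCR85 has values in 2 groups and was not compared.

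The list of the rest of the family holds genes whose product or description in the reference annotation has the word defensin, or whose symbol is LCR or PDF with a number, 287 in all with the members. It is loose, since it takes in PROPEP1 (AT5G64900), whose description only mentions a defensin and which is in no table. Of the 287, 17 are listed in any comparison, 13 besides the members. With age these 13 gave 5 calls in WS on the ground, 3 higher and 2 lower, or 38.5% beside 22.6% of all loci. In sku5 on the ground 4 were called, 2 higher and 2 lower, or 30.8% beside 20.9%. In spaceflight 3 were called in each genotype, all lower with age, or 23.1% beside 22.0% in WS and 36.4% in sku5. Of all called loci, 56.4% and 60.6% were lower in those comparisons.

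Between spaceflight and ground, 1 of the 13 was called in WS at 4 d, TI1, which was higher, or 7.69% beside 2.62% of all loci. The other spaceflight calls of the 13 were all lower, at 4 genes (30.8% beside 18.2%) in WS at 8 d, 3 genes (23.1% beside 20.6%) in sku5 at 4 d and 5 genes (38.5% beside 33.8%) in sku5 at 8 d. Of all called loci, 53.8%, 40.4% and 67.2% were lower there. The genotype calls of the 13 were lower in sku5, with 1 on the ground at 4 d (7.69% beside 7.8%), 3 on the ground at 8 d (23.1% beside 10.8%) and 4 in spaceflight at 8 d (30.8% beside 28.9%). Of all called loci, 52.0%, 39.4% and 58.8% were lower in these. With 1 to 5 genes in a comparison and no test, no direction of the family is read from these counts.

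TI1 (AT2G43510), a trypsin inhibitor of the family, fell with age in all 4 settings, between 6.86-fold and 11.3-fold in the authors' deposited tables. Its level in WS on the ground was 55.1 FPKM at 4 d and 8.03 FPKM at 8 d in the authors' deposited table. Where AT5G33355 was lower, TI1 was higher in spaceflight in WS at 4 d, at 101 FPKM against 50.6 FPKM in the authors' deposited table (q = 0.0197). AT2G43535 and AT2G43550, close to TI1 on chromosome 2, rose with age on the ground. In WS the authors' deposited table gives 446 FPKM at 4 d and 839 FPKM at 8 d for AT2G43535, and 63.2 FPKM and 110.1 FPKM for AT2G43550. Both were lower in spaceflight in WS at 8 d, where AT5G33355 and AT1G34047 were higher, at 596 against 859 FPKM and 66.4 against 113 FPKM in the authors' deposited table.

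AT4G22212, the gene next to LCR85, was the most often called family gene outside the members, in 7 tables. It fell with age in all 4 settings by 1.74-fold to 2.99-fold, the latter in sku5 on the ground, where the authors' deposited table gives 1766 FPKM at 4 d and 590 FPKM at 8 d. In the same comparison LCR85, whose best match elsewhere in the genome is AT4G22212 (82.4% over 188 bases), fell 14.4-fold in the authors' deposited table. AT4G22235, of the same cluster, was lower in spaceflight in 3 comparisons, with 163 FPKM against 241 FPKM for sku5 at 8 d, as the authors' deposited table gives it. AT4G11393 was lower in spaceflight in sku5 at 4 d, at 18.1 FPKM against 70.9 FPKM in the authors' deposited table, and is listed at 0 at 8 d in spaceflight. AT1G77525 rose with age in WS on the ground to 49.0 FPKM from 21.0 FPKM and was lower in sku5 in spaceflight at 8 d, at 15.7 FPKM against 36.3 FPKM in the authors' deposited tables. LCR10 (AT2G15535) was lower in sku5 in 2 comparisons, 1.81-fold and 1.32-fold in the authors' deposited tables.

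**Figure D4:**
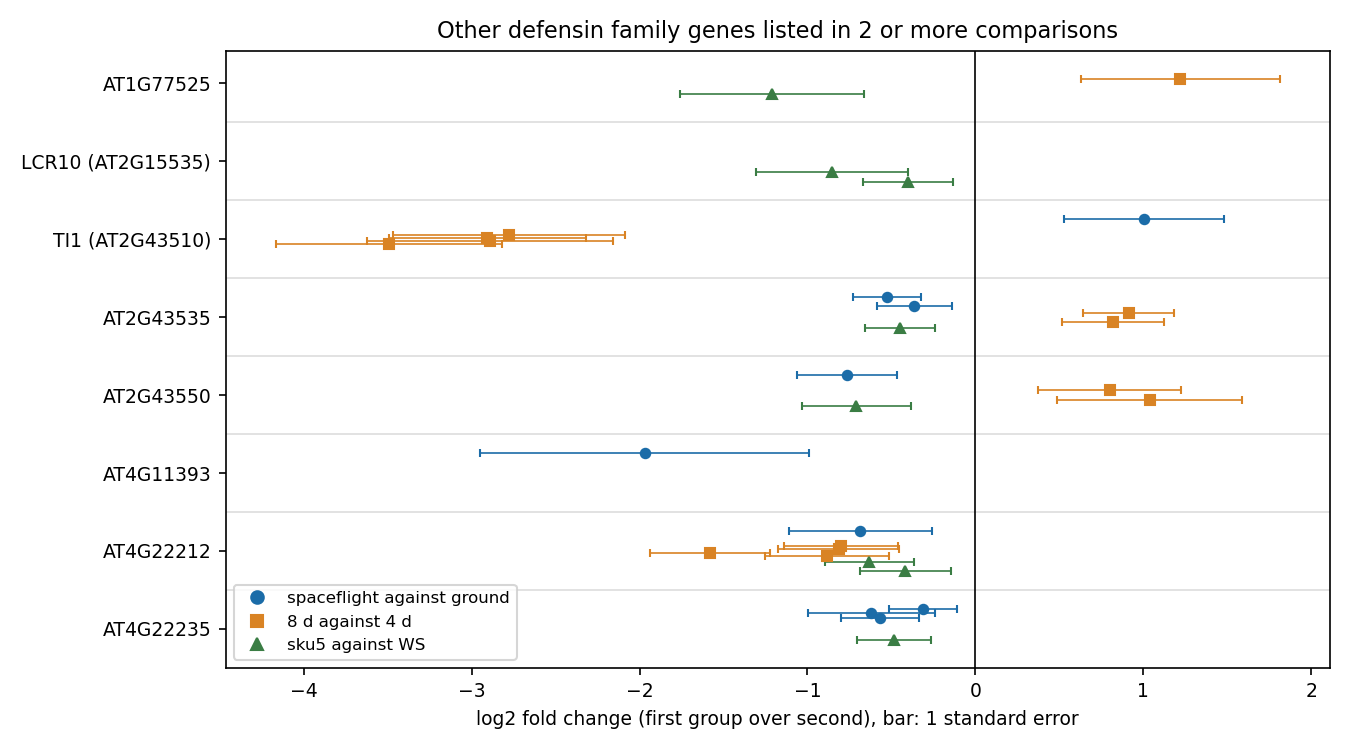
Log2 fold changes of the 8 other family genes listed in at least 2 tables, the first-named group over the second, with bars of 1 SE (blue circles spaceflight against ground, orange squares 8 d against 4 d, green triangles sku5 against WS). TI1 and AT4G22212 lie below 0 for age in all 4 settings, while AT2G43535 and AT2G43550 lie above 0 on the ground. The entry of AT4G11393 listed at 0 has no finite value and is not drawn.

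Of 21 genes on a list of defence hormone genes, 4 are listed in any table, ORA59, PR4, OPR3 and VSP1. For age 1 to 2 of these 4 were called in each setting, beside 20.9% to 36.4% of all loci, and all were higher at 8 d. On the ground the call was ORA59 alone, at low levels, 6.08 FPKM against 1.89 FPKM in WS and 7.72 FPKM against 0.93 FPKM in sku5. In spaceflight the calls were ORA59 and PR4 in WS and OPR3 in sku5. For spaceflight the only call was VSP1, a jasmonate-induced storage protein gene, which was lower in WS at 8 d. That is 25.0% of the 4 listed genes beside 18.2% of all loci. In the other spaceflight comparisons 2.62% to 33.8% of all loci were called. None of the 4 was called for genotype, beside 7.8%, 10.8% and 28.9% of all loci. With 4 genes and no test, nothing is read from these counts. PDF1.2, the marker of the jasmonate and ethylene branch, is not listed in any table, so it was either not called or not tested.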

How the data were processed

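RNA of 32 whole-root samples was sequenced by the authors. Named in the submitters' processing notes are Cuffdiff and Cufflinks, STAR 2.5.1b, Picard, Trimmomatic 0.36 and FastQC 0.11.2. Their settings and the genome build are not given in the sources used here. Per the file headers, each of the 11 tables deposited by the authors gives for each locus an FPKM for each of 2 groups, a log2 fold change, a test statistic (a signed score), a p-value and a q-value. Only loci marked significant are listed, and p-values come in steps of 5e-05. Counts were not used here, so depth and replicate spread are unknown, nothing was refitted and samples were grouped by title alone.

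Each fold change was signed so that the numerator is the spaceflight, the older or the mutant group. Group values differ between tables by up to 10.8% (20 pairs of tables that share a group, SD of the log2 ratio at most 0.00245), and a common scale was fitted as a factor per table. The simulated data, made without noise, checked the code alone. In these data the median log2 ratios of the pairs lay at most 0.0045 from the fit. Sequences came from RefSeq TAIR10.1 by gene identifier. They were aligned with Biopython 1.88 and blastn 2.17.0. Likeness used log2(FPKM + 1) with at least 5 groups and the 3 nearest loci per member. Family genes were named if listed in at least 2 tables. Members and lists were chosen with earlier results of these data known. Alternatives were a q under 0.01, a change of at least 2-fold, single-gene loci, pseudocounts of 1 and 0.1 and the common scale.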

Additional observations from a re-analysis of the deposited data

How the results depend on the processing

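At a q under 0.01 the defensin-like genes kept 7 of 9 spaceflight calls, 10 of 11 age calls and 3 of 4 genotype calls. At a change of at least 2-fold they kept 9, 10 and 2. The defensin list, whose calls include those of these genes, kept 35 of 60 calls. All these loci carry a single gene name, so leaving out loci with several names could change no count. That filter does not show that the loci are unmerged. The locus of AT3G59930 spans 45373 bases, and LCR85 shares its span with 3 other listed loci. Pseudocounts of 1 and 0.1 turned the direction of none of the 24 log2 fold changes and moved them by at most 0.18, less than their SE. The common scale moved the 48 levels by at most 7.08%. No paired analysis was possible because the tables hold 1 value per group, and for the same reason no replicate could be left out. The precision of every value is limited by the lack of values per library, and that of AT5G33355 and AT3G59930 also by their shared coding sequence.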
